A study of Mus musculus with 6 samples.

Results

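The apolipoprotein genes Apoa1, Apoa2, Apoa4, Apoa5, Apob, Apoc1, Apoc2, Apoc3, Apoe and Apom were followed in mouse liver. These 10 genes, of 20284 named genes on the array, were taken by name as a family, and their probes were found through the RefSeq accession of each probe. Of the 10 genes, 9 had a probe, 11 probes in all, and all 11 passed the filter on dim probes. Apoa2 and Apob had 2 probes each and the other 7 genes had 1. No probe was matched to Apoc2 by this rule, and it was not analysed here.

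Apolipoproteins coat the lipid particles that carry triglyceride and cholesterol in blood, and hepatocytes make most of them. The product of Apob is the scaffold of very low density lipoprotein, on which the liver exports triglyceride. The products of Apoa1 and Apoa2 form high density lipoprotein, and the smaller apolipoproteins move between particles, where they act on lipases and serve as ligands for receptors.

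Livers came from male mice of 8 weeks on a chow diet that had fasted overnight. The Gα12 KO group (n = 3) lacked Gα12, a G protein α subunit that Gna12 encodes, and the WT group (n = 3) was its wild-type control. Both groups had a mixed strain, C57BL/6 and 129/Sv, with C57BL/6 given as 95% of the background. The sources used here do not say how the knockout was made, whether it was present in all tissues, or whether the WT mice were littermates. Each group holds 3 arrays, from 3 mice by the labels, and this number limits the precision of every value. Because whole liver was used, fewer cells of a type and less RNA per cell cannot be told apart.

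A level is the log2 of a probe's intensity on a 1-colour array minus the 75th percentile of that array, and a difference is Gα12 KO minus WT. The single Gna12 probe had levels of -4.91, -4.62 and -3.47 in KO replicates 1 to 3, against -3.48, -4.55 and -0.89 in WT replicates 1 to 3. Only WT replicate 3 was well above background there, so the probe checks the genotype of the other arrays little. WT replicates 1 and 2 stood apart: they correlated with the KO arrays at r = 0.869 to 0.930 across probes, whereas WT replicate 3 did so at 0.966 to 0.982. The 7 probes of Gapdh, a glycolytic enzyme gene, spanned 4.36 to 4.87 log2 units on KO arrays, against 9.58, 7.79 and 4.01 on WT replicates 1 to 3. The genotypes also lay in different rows of 1 slide, so row and genotype cannot be told apart. Each result on the apolipoproteins is therefore given with the single WT arrays in view.

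Apoa4 had the widest gap between arrays of all apolipoprotein genes. Its product is carried on chylomicrons and high density lipoprotein, and it is made by the intestine and, in mice, by the liver as well. Apoa4 had levels of 1.76, 2.18 and 1.94 in KO livers, against -3.20, -2.90 and 1.91 in WT livers. WT replicate 3 lay among the KO livers, and WT replicates 1 and 2 lay far below all other arrays. The probe was well above background on all 3 KO arrays and on WT replicates 2 and 3. Before scaling, its intensity was 1024, 1334 and 1521 in KO livers, against 24.3, 42.3 and 2045 in WT livers. The KO mean was 1.96 ± 0.21 (SD, n = 3) and the WT mean -1.39 ± 2.87 (SD, n = 3). The difference of 3.35 (SE 1.23, 95% confidence interval 0.48 to 6.22) did not pass the limma test over all probes (adjusted p = 0.235, unadjusted p = 0.0275). Without WT replicate 3 the difference was 5.005 (SE 0.23) and passed limma's test (adjusted p = 0.00106), in a fit that called 56.7% of all probes. With WT replicate 3 as the single WT liver, the KO mean lay 0.05 above it. The difference of Apoa4 was 2.45 without WT replicate 1, 2.60 without WT replicate 2 and 2.12 after normexp background correction, a model that removes background without negative values.

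Apoa1, which lies on chromosome 9 with Apoc3 between it and Apoa4, had the same division of arrays on a smaller scale. Its product is the main protein of high density lipoprotein and the activator of the plasma enzyme that esterifies cholesterol there. The levels of Apoa1 were 8.83, 8.96 and 8.78 in KO livers, against 7.77, 8.18 and 8.82 in WT livers. Again WT replicate 3 lay within the KO values and WT replicates 1 and 2 below them. The array carries the Apoa1 probe as 10 spots, and the SD between the spots of an array was 0.03 to 0.06 on KO arrays and 0.02 to 0.09 on WT arrays. The KO mean was 8.86 ± 0.09 (SD, n = 3) and the WT mean 8.26 ± 0.53 (SD, n = 3), with a difference of 0.60 (SE 0.36, interval -0.24 to 1.44, limma adjusted p = 0.299). Without WT replicate 3 the difference was 0.88 (SE 0.22, limma adjusted p = 0.0191), against WT replicate 3 alone it was 0.04, and without WT replicate 1 it was 0.355.

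The promoters of Apoa4 and Apoa1 are shown because these genes share a chromosome cluster and the same low WT arrays. Apoc3 and Apoa5, in the same cluster, were not low on those arrays. The promoter of Apob is shown because, of the family, that gene alone had genotypes that did not overlap. Each window runs from 250 bases before to 50 bases after a start site, 5′ to 3′, from RefSeq on GRCm38.p6. The Apoa4 window is chr9:46240594-46240893, + strand, that of Apoa1 is chr9:46228380-46228679, + strand, and that of Apob is chr12:7977427-7977726, + strand. Capitals mark a match, on either strand, to any of the 3 motifs spelled out after the sequences.
Apoa4: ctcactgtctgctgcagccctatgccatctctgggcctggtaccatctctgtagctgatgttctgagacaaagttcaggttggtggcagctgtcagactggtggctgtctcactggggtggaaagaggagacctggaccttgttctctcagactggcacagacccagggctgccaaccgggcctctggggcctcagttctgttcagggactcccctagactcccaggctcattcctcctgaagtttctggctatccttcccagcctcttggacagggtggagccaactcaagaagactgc
Apoa1: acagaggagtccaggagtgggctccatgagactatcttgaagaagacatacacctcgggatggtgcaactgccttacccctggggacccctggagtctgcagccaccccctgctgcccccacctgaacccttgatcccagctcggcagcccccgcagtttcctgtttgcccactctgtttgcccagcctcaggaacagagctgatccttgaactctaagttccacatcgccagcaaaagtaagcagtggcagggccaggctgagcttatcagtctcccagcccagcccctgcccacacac
Apob: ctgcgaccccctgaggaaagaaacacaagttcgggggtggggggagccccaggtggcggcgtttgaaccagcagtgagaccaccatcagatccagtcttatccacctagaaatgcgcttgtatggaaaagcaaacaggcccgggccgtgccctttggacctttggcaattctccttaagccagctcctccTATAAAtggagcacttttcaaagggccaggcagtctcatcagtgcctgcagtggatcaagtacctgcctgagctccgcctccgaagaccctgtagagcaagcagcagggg

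TATAAA is the core of the TATA box, AGGTCA is the core element that many nuclear receptors read, and CAAAGTC is part of the site of HNF4A, a liver nuclear receptor. None of these 3 motifs occurred in the Apoa4 and Apoa1 windows, and Apob had 1 TATAAA, whose first base is at position -60 from its start site. Over all 32851 windows of the table, 13.6% held TATAAA, 16.3% held AGGTCA and 4.44% held CAAAGTC. Of the 10 genes, 8 had a window in the table. Among their other windows, both of Apoa5 held TATAAA, the 2 of Apoa2 held 1 TATAAA and 1 AGGTCA between them, 1 of 3 of Apoe held TATAAA on both strands with the matches overlapping, and Apoc2 held AGGTCA 2 times. A match is a description of the letters and not evidence that a factor binds.

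**Figure D1:**
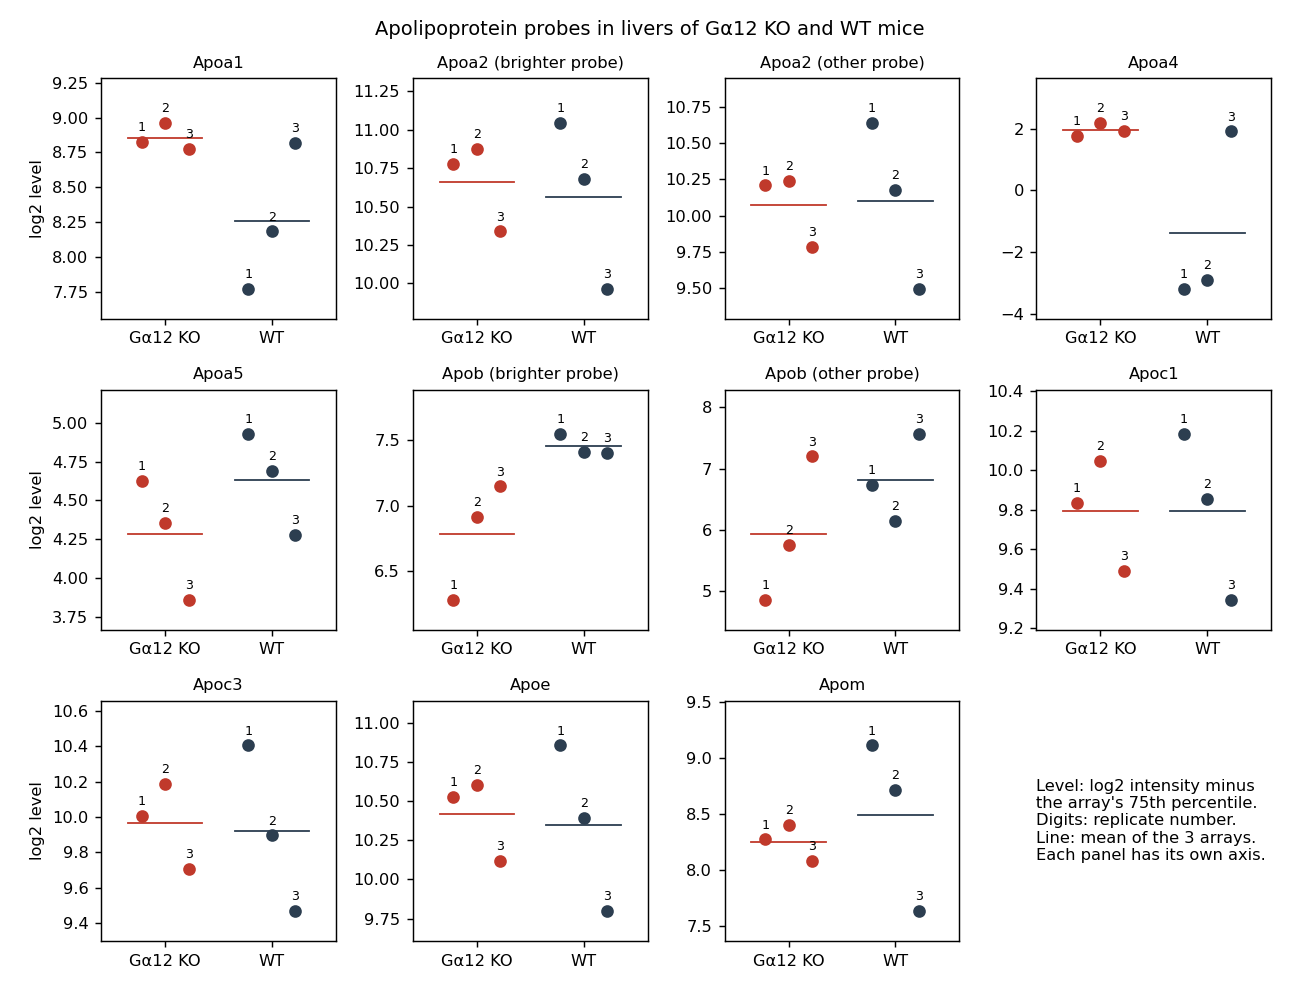
Log2 levels of the 11 apolipoprotein probes (vertical axis, log2 intensity minus the array's 75th percentile) in Gα12 KO and WT livers, with a point per array marked by its replicate number and a line at the mean of the 3 arrays. WT replicates 1 and 2 are low for Apoa4 and Apoa1, WT replicate 3 is the lowest array for Apoa2, Apoc1, Apoc3, Apoe and Apom, and the genotypes are separate only for 1 Apob probe.

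Apob was the only gene of the family with no overlap between genotypes, which 25.5% of all genes tested also showed. By the probe with the higher mean, Apob had levels of 6.28, 6.92 and 7.15 in KO livers, against 7.55, 7.41 and 7.41 in WT livers. All KO livers lay below all WT livers, and here the spread lay in the KO group. The KO mean was 6.78 ± 0.45 (SD, n = 3) and the WT mean 7.45 ± 0.08 (SD, n = 3). The difference of -0.67 (SE 0.34, interval -1.47 to 0.13) did not pass the limma test (adjusted p = 0.254). It was -0.62 against WT replicate 3 alone and -0.69 without that array, but -0.15 after quantile normalization. Without KO replicate 1, the lowest liver, it was -0.42, and without KO replicate 3 it was -0.85. The median difference over all genes was -0.49, which is nearer to the Apob value than 0 is.

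The other Apob probe ordered the livers in another way. Its levels were 4.85, 5.76 and 7.20 in KO livers, against 6.74, 6.15 and 7.56 in WT livers. KO replicate 3 was above WT replicates 1 and 2 on this probe, so the genotypes overlapped. The difference was -0.88 (SE 0.64, interval -2.37 to 0.61, limma adjusted p = 0.362), and its intensity spanned 11.7-fold over the 6 arrays, against 3.91-fold for the first probe. The probes shared the sign of the difference and differed in which arrays were high.

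Apoa5, the neighbour of Apoa4 on chromosome 9, encodes a scarce liver apolipoprotein that promotes the breakdown of triglyceride by lipoprotein lipase. Apoa5 had levels of 4.63, 4.36 and 3.86 in KO livers, against 4.93, 4.69 and 4.28 in WT livers. The groups overlapped, since WT replicate 3 lay below KO replicates 1 and 2. The difference was -0.35 (SE 0.36, interval -1.18 to 0.48, limma adjusted p = 0.496), and it was 0.0029 against WT replicate 3 alone and 0.12 after quantile normalization. Unlike Apoa4 and Apoa1, Apoa5 was not low on WT replicates 1 and 2.

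Apom encodes an apolipoprotein of high density lipoprotein that carries the lipid mediator sphingosine 1-phosphate. The levels of Apom were 8.27, 8.40 and 8.08 in KO livers, against 9.11, 8.71 and 7.63 in WT livers. WT livers lay on both sides of the KO livers, replicates 1 and 2 above them and replicate 3 below. The KO mean was 8.25 ± 0.16 (SD, n = 3) and the WT mean 8.48 ± 0.77 (SD, n = 3). The difference of -0.23 (SE 0.43, interval -1.24 to 0.78, limma adjusted p = 0.712) changed sign against WT replicate 3 alone (0.62) and after quantile normalization (0.27).

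Apoa2, Apoc1, Apoc3 and Apoe were close to one another in their pattern over the arrays, with differences between genotypes of at most 0.10 in size. Apoa2 encodes the second protein of high density lipoprotein, Apoc1 and Apoc3 encode small proteins that slow the clearance of triglyceride-rich particles, with Apoc3 also an inhibitor of lipoprotein lipase, and Apoe encodes the ligand by which remnant particles enter hepatocytes. Apoe had levels of 10.53, 10.61 and 10.12 in KO livers, against 10.85, 10.39 and 9.80 in WT livers. All KO values lay within the WT range. The KO mean was 10.42 ± 0.26 (SD, n = 3) and the WT mean 10.35 ± 0.53 (SD, n = 3), with a difference of 0.07 (SE 0.38, interval -0.81 to 0.95, limma adjusted p = 0.908). Like Apoa1, the Apoe probe was printed as 10 spots, and their SD was 0.11 to 0.14 on KO arrays and 0.12 to 0.15 on WT arrays.

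For Apoa2 the levels were 10.78, 10.87 and 10.34 in KO livers, against 11.04, 10.68 and 9.97 in WT livers, by the probe with the higher mean. The second Apoa2 probe gave 10.21, 10.24 and 9.78 in KO livers, against 10.64, 10.18 and 9.49 in WT livers. Both Apoa2 probes put the arrays in the same order, and their differences were 0.10 (SE 0.38) and -0.03 (SE 0.39). Apoc3 had levels of 10.01, 10.19 and 9.70 in KO livers, against 10.41, 9.90 and 9.47 in WT livers, with a difference of 0.04 (SE 0.36, interval -0.80 to 0.88). Apoc1, which lies beside Apoe on chromosome 7, had levels of 9.84, 10.05 and 9.49 in KO livers, against 10.18, 9.85 and 9.34 in WT livers. Its difference was -0.00055 (SE 0.36, interval -0.83 to 0.83). For each of these genes the WT range enclosed the KO range. Over these 4 genes the intervals reached from -0.83 to 0.99, and differences within those bounds could not be resolved with 3 arrays per group.

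**Figure D2:**
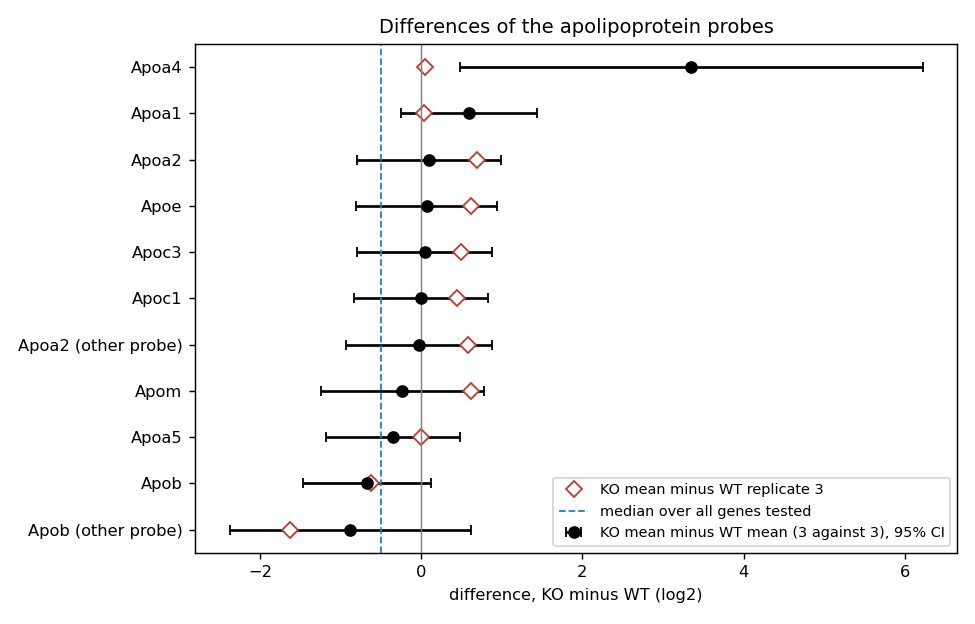
Difference Gα12 KO minus WT in log2 units (horizontal axis) for the 11 apolipoprotein probes, with the estimate of limma and its 95% confidence interval from 3 arrays per group (black) and the KO mean minus WT replicate 3 (open diamonds). The dashed line is the median over all genes tested, -0.49. The Apoa4 estimate of 3.35 is 0.05 against WT replicate 3, and the interval of every probe but Apoa4 includes 0.

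The order of the arrays in these 4 genes followed, exactly or nearly, the reverse of the scaling value of the arrays. The 75th percentile was 8.24, 8.20 and 8.63 log2 units on KO replicates 1 to 3, against 7.80, 8.30 and 9.09 on WT replicates 1 to 3, a span of 2.44-fold. Before scaling, the intensity of Apoe was 447204, 458270 and 441605 in KO livers, against 411879, 423821 and 484052 in WT livers, a span of 1.18-fold over the 6 arrays. Apoa2 spanned 1.18-fold and 1.12-fold by its 2 probes, Apoc3 1.28-fold and Apoc1 1.37-fold. After scaling, Apoa2, Apoc3 and Apoe put the 6 arrays exactly in the reverse order of the 75th percentile, which 0.228% of all genes tested did. Because the scaling subtracts that percentile, a probe whose intensity varies little between arrays tends to take this order by construction. Nothing about genotype is read from the order or its share. No non-control spot was marked as saturated, and the spot signal of the brighter Apoa2 probe was at most 509936 where the scanner's saturation value was 778435. Whether the response of these bright spots is compressed was not tested. Without scaling, the differences of Apoa2, Apoe, Apoc3 and Apoc1 were 0.06, 0.03, 0.0072 and -0.04, whereas those of Apoa4, Apoa1 and Apob were 3.32, 0.56 and -0.71.

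**Figure D3:**
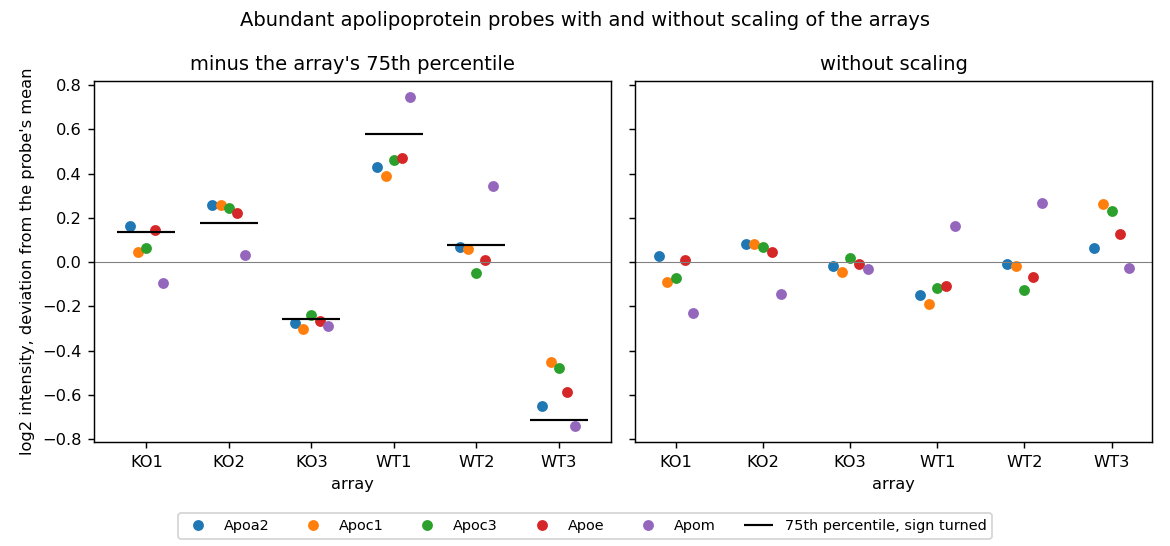
Deviation of the log2 intensity from the probe's mean over the 6 arrays (vertical axis) for Apoa2, Apoc1, Apoc3, Apoe and Apom on each array, after subtraction of the 75th percentile (left) and without scaling (right). Black bars show the 75th percentile with its sign turned. After scaling, the points of Apoa2, Apoc1, Apoc3 and Apoe lie near the bars, from WT replicate 1 at the top to WT replicate 3 at the bottom, and without scaling these genes span 1.18-fold to 1.37-fold.

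As a family, 0 of the 11 apolipoprotein probes passed limma's test at an adjusted p below 0.05, as did 0% of all 23132 probes. At an unadjusted p below 0.05 stood 1 of the 11, that of Apoa4, against 21% of all probes. By gene this was 1 of 9, against 20.6% of all genes (3.98% higher and 16.6% lower in KO livers). The median difference of the 9 genes was 0.04, against -0.49 over the 12297 genes tested, and 5 of 9 had a difference above 0, against 27.7% of all genes. That tally was 8 of 9 after quantile normalization, 2 of 7 in the deposited matrix, and 2 of 9 without WT replicate 3 or without KO replicate 2. A fit with WT replicate 3 as the single WT liver takes its spread from the KO livers alone and assumes that WT livers vary alike. In it 0 of 9 genes had an unadjusted p below 0.05, as did 6.78% of all genes, and nothing is read from these counts. The 9 genes then had a median difference of 0.45 and the array as a whole -0.03. Without WT replicate 3, 2 of the 11 probes passed limma's test, those of Apoa4 and Apoa1, where 56.7% of all probes did.

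**Figure D4:**
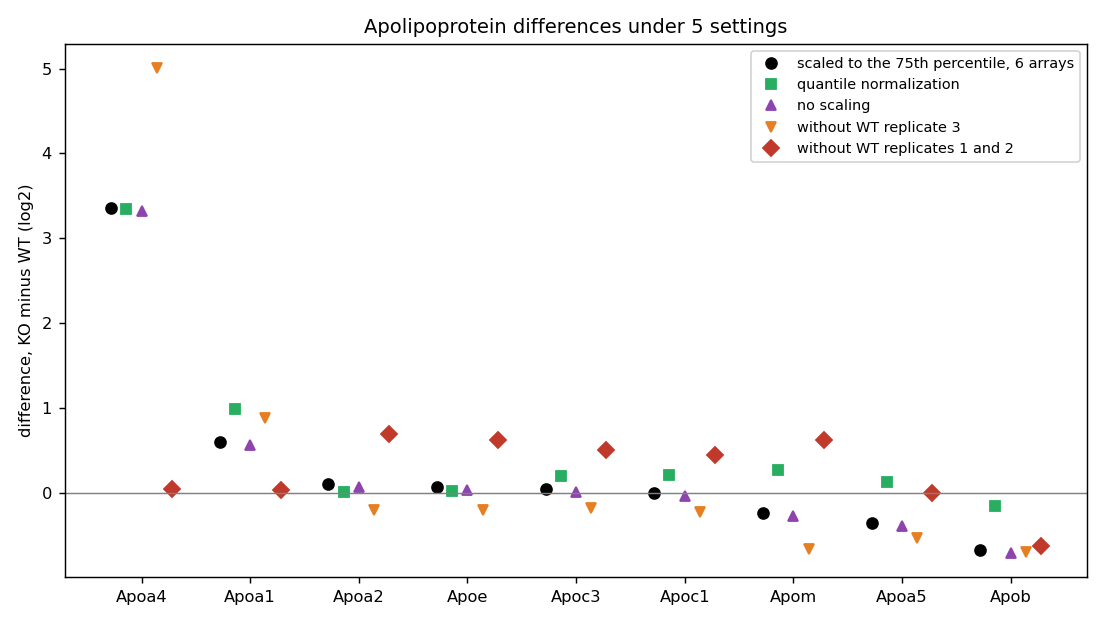
Difference Gα12 KO minus WT in log2 units (vertical axis) of the 9 apolipoprotein genes with a probe under 5 settings, each a symbol. Of the 5 plotted values of Apoa4, 4 lie between 3.32 and 5.005 and the one without WT replicates 1 and 2 is 0.05, and Apob is below 0 in all 5.

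Likeness of pattern was measured by the root mean square difference of levels over the 6 arrays, after the mean of each gene was removed. Among Apoa2, Apoc1, Apoc3 and Apoe the 6 pairs differed by 0.04 to 0.10 log2 units, and the 30 other pairs of the family by 0.22 to 2.76. Apoa4 and Apoa1 differed by 1.95, because their low WT arrays were low by different amounts. The genes most like Apoa4 were Csrnp3, Snd1, Dedd, Amt and Lgr4, at 0.20 to 0.30. Snd1 had levels of 2.39, 2.39 and 2.15 in KO livers, against -2.69, -2.32 and 1.80 in WT livers. Most like Apoa1 were Ptges2, Rras, Gorasp2, Plod3 and Tbl2, at 0.05 to 0.07, and most like Apob were Chd3, Gna14, Rad50, Nek5 and Utp25, at 0.11 to 0.14. The gene nearest to both Apoe and Apoa2 was Ftl1, a ferritin subunit gene named here after its values were seen, at 0.03 from Apoe and 0.02 from Apoa2.

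The other genes of lipoprotein metabolism were described in 4 lists, none of whose members passed limma's test over all probes. Of 14 measured genes in a list of other apolipoproteins, 3 had lower and 2 higher values in KO livers at an unadjusted p below 0.05, where 16.6% of all genes were lower and 3.98% higher. The list's median was -0.45, and its count of 5 became 10 without WT replicate 3 and 3 without any other single array. Over all 23132 probes, the count of 4861 became 14566 without WT replicate 3 and 1540 to 3161 without any other single array. Saa1 and Saa2, acute phase apolipoproteins of high density lipoprotein whose sequences are near-identical, were the members with the lowest p. Saa2 had levels of 7.24, 6.40 and 8.46 in KO livers, against 6.01, 5.03 and 3.93 in WT livers, a difference of 2.37 (SE 0.68). The groups of Saa2 did not overlap, as for 25.5% of all genes tested, and cross-hybridisation between the Saa genes was not tested. Apol7a differed by -1.30 (SE 0.39) and Apoo, a subunit of the complex that shapes mitochondrial cristae despite its name, by -1.18 (SE 0.46).

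Lipoprotein assembly and secretion held 24 measured genes, of which 6 had lower and 3 higher values at an unadjusted p below 0.05, against 16.6% lower and 3.98% higher over all genes. Their median difference was -0.74. Those with the lowest p were the vesicle coat gene Sec24d (2.26, SE 0.74), the protein disulphide isomerase gene Pdia4 (4.19, SE 1.43), the cargo receptor gene Tmed2 (3.84, SE 1.39) and Ttc39b (-1.23, SE 0.48). Pdia4 had levels of 3.76, 3.34 and 3.52 in KO livers, against -2.83, -2.32 and 3.19 in WT livers, so that it too was low on WT replicates 1 and 2. So were Tmed2 and Sec24d. Tmed2 had levels of 6.43, 6.18 and 6.16 in KO livers, against -0.13, 1.29 and 6.09 in WT livers. Sec24d had levels of 2.38, 2.53 and 2.26 in KO livers, against -1.50, 0.13 and 1.76 in WT livers. Mttp, which loads lipid onto the product of Apob and is named here after its values were seen, had levels of 3.72, 3.66 and 3.84 in KO livers, against 5.30, 5.07 and 4.01 in WT livers. All KO livers were below all WT livers for Mttp, with WT replicate 3 nearest to them, and the difference was -1.05 (SE 0.41, limma unadjusted p = 0.0341). Of all genes tested, 25.5% had no overlap between genotypes. The list's count of 9 became 1 without WT replicate 1 or without WT replicate 2. It became 2 without KO replicate 1 or 2 and 4 without KO replicate 3. Without WT replicate 3 it became 21, in a fit where 14566 of all 23132 probes had an unadjusted p below 0.05. Of all probes, 4861 did so with all arrays and 1540 to 3161 without any other single array.

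In lipoprotein remodelling and uptake, 3 of 19 measured genes had lower values in KO livers at an unadjusted p below 0.05 and 0 had higher ones, against 16.6% lower and 3.98% higher over all genes, so the share of lower genes was near that of all genes. The list's median was 0.05, and its count became 14 without WT replicate 3 and 2 without WT replicate 2 or any single KO replicate. Over all 23132 probes, the count of 4861 became 14566 without WT replicate 3 and 1540 to 3161 without any other single array. Among the 3 lower genes were the receptor gene Vldlr (-1.88, SE 0.42) and the lipase regulator gene Angptl8 (-2.23, SE 0.60). Vldlr had levels of 0.08, -0.05 and -0.81 in KO livers, against 1.91, 1.97 and 0.97 in WT livers. Its groups did not overlap, as for 25.5% of all genes tested. Of 32 transcription factors and cofactors known to act on apolipoprotein genes, 5 had lower and 6 higher values at an unadjusted p below 0.05. Over all genes 16.6% were lower and 3.98% higher at that threshold. The median difference of the 32 regulators was -0.32. Cebpb was higher in KO livers by 0.95 (SE 0.35), while Usf1, Srebf1 and Onecut1 were well above background on only 1, 2 and 1 of the 3 WT arrays. Onecut1 was so on only 2 of the 3 KO arrays, and its groups overlapped, with KO replicate 3 at -3.04 and WT replicate 3 at -1.79. The differences of Usf1 (3.07, SE 0.95), Srebf1 (2.94, SE 1.002) and Onecut1 (3.43, SE 1.24) therefore rest partly on background. Usf1 had levels of -0.86, -0.58 and -0.98 in KO livers, against -5.18, -5.05 and -1.40 in WT livers. Srebf1 had 1.86, 1.23 and 1.54 in KO livers, against -3.56, -1.62 and 0.98 in WT livers. Both were thus low on WT replicates 1 and 2. Cebpb, at 4.44, 5.32 and 5.21 in WT livers, did not share that division. The regulator count of 11 became 2 without WT replicate 1, 1 without WT replicate 2 and 24 without WT replicate 3. It became 3, 2 and 5 without KO replicates 1, 2 and 3. The counts over all probes given above for single arrays left out apply here too. The split moved with the scaling. Without scaling between arrays 8 regulators and 11 assembly genes were lower at that threshold and 0 higher. Of all 12297 genes, 4062 were then lower and 65 higher. After quantile normalization 3 regulators were lower and 5 higher, with 3 assembly genes each way. Over all genes, 1746 were then lower and 550 higher.

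**Figure D5:**
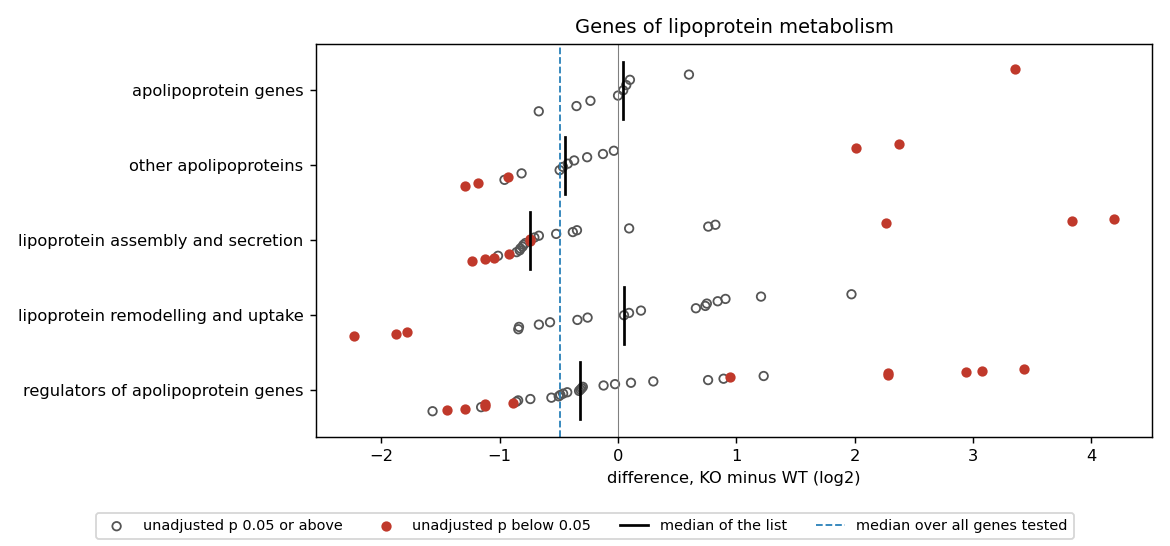
Difference Gα12 KO minus WT in log2 units (horizontal axis) of each measured gene in the apolipoprotein family and 4 related lists, with filled points for an unadjusted p below 0.05. Vertical bars are list medians, 0.04, -0.45, -0.74, 0.05 and -0.32 from the top, and the dashed line is the median over all genes tested, -0.49.

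Markers of the tissue and of other cell types were read beside these values. All 10 hepatocyte markers were measured, and the sum of their unlogged levels was 7369 to 9715 in KO livers, against 11113, 8375 and 6002 in WT replicates 1 to 3. Alb, Serpina1a, Ttr, Ahsg and Hpx put the arrays exactly in the reverse order of their scaling values, as Apoe did. Fgb and Trf did so nearly, and Tat, Fga and Cps1 did not. As for Apoe, bright probes whose intensity varies little tend to take that order by construction. Hepatocyte content is therefore not read from the sum. Of the 10, the 7 genes Alb, Fgb, Trf, Serpina1a, Ttr, Ahsg and Hpx were lower on WT replicate 3 than on WT replicates 1 and 2, as Apoe was. The other 3, Tat, Fga and Cps1, were higher on WT replicate 3 than on WT replicates 1 and 2, as Apoa4 was, with 4.38, 6.04 and 7.61 for Fga there and 7.62 to 7.99 in KO livers. Of 7 markers of the small intestine, where Apoa4 is also expressed, Cdh17, Fabp6, Lct and Vil1 were not well above background on any array, and 2 were measured. The sum of these 2, Fabp2 and Lgals4, was 49.9 to 58.3 in KO livers, against 254, 146 and 77.6 in WT replicates 1 to 3. The order of WT replicates 1, 2 and 3 from high to low also held for the sums of hepatocyte, Kupffer cell and endothelial markers. That order is the reverse of the order of their scaling values, and the part of scaling in these sums was not tested. The order did not hold for every marker. C1qa, C1qb, Kdr and Pecam1 were higher on WT replicate 3 than on WT replicates 1 and 2, as Apoa4 was. C1qa had levels of 0.16, 1.58 and 2.52 in WT replicates 1 to 3, and Kdr 2.14, 1.92 and 4.23. For Timd4 and Clec4g, WT replicate 3 lay between the other WT arrays. The remaining Kupffer cell and endothelial markers were lower on WT replicate 3. The 8 Kupffer cell markers summed to 69.7 to 85.9 in KO livers, against 138, 125 and 67.9 in WT replicates 1 to 3. The endothelial markers summed to 111 to 135 in KO livers, against 182, 155 and 127 in WT replicates 1 to 3. Stellate cell markers summed to 145 to 149.9 in KO livers, against 158 to 298 in WT livers. Erythroid markers summed to 341 to 394 in KO livers, against 404 to 696 in WT livers. Among these markers the stellate Des (difference 1.28, SE 0.72) and the erythroid Hbb-bs (1.42, SE 0.61) had higher means in KO livers. The other measured markers of both lists had lower means there. The 3 measured exocrine pancreas markers summed to 6.01 to 7.23 in KO livers, against 1.81, 5.62 and 10.73 in WT replicates 1 to 3. That sum mostly follows Amy2a5, with levels of 2.45 to 2.78 in KO livers, against 0.35, 2.30 and 3.34 in WT replicates 1 to 3. Of these markers only Amy2a5 was lower on WT replicates 1 and 2 than on all other arrays, as Apoa4 was. Cela1 and Cela2a, at -1.31 or below on every array, did not share that order. The 3 measured skeletal muscle markers summed to 0.538 to 2.71 in KO livers, against 0.227 to 0.441 in WT livers, with Ckm and Mylpf not well above background on any array. Of the 3, Acta1 was well above background on only 2 of 3 KO arrays and 1 of 3 WT arrays. Its levels were -2.45, -0.15 and 0.53 in KO livers, against -3.93, -3.22 and -2.67 in WT livers. These sums therefore rest partly on background. Sums of cholangiocyte, lymphocyte and neutrophil markers overlapped between genotypes. The part of cell makeup and of RNA quality in the Apoa4 and Apoa1 values was not tested.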

How the data were processed

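RNA of 6 livers was measured on 1-colour arrays. The authors' spot reading used Agilent Feature Extraction 10.7.3.1, per the submitters' processing notes. Each deposited file of an array gives spot intensity after background subtraction, with low values set to a floor, per the file headers. The deposited matrix holds log2 values, which differ from the log2 processed intensity by a constant per array, chosen by the authors in a way not given in the sources used here. From the scanner files, log2 intensity minus each array's 75th percentile over non-control spots was taken, outlier spots were left out and spots of a probe averaged, which left 55324 of 55681 probes. The 23132 probes that the scanner software marked well above background on 3 or more arrays were tested with limma 3.58.1 in R 4.3.3, two-sided, with Benjamini-Hochberg adjustment over all of them and a threshold of 0.05. Symbols came from RefSeq GRCm38.p6 by unversioned accession (26762 probes matched). Of several kept probes, the one of highest mean stands for the gene. The array design follows mouse build mm9, so only promoter coordinates, on GRCm38.p6, are given. The fit was tested on simulated data. The members, lists and settings were chosen with earlier results of these data known. Genes outside the family were named as the 4 of each list with the lowest unadjusted p below 0.05, and, for the 3 members with the lowest p, the 5 genes most like each. Marker genes and other exceptions were named after their values were seen. One list gene that this rule names is not reported here. Alternatives covered normalization, filter, probe choice, model, pairing and left-out arrays. An analysis without scaling was added after the data were seen.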

Additional observations from a re-analysis of the deposited data

How the results depend on the processing

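Of the apolipoprotein probes, 0 passed limma's test in every setting except without WT replicate 3. Without that array 2 passed, in a fit that called 56.7% of all 23132 probes. The range over the 6 arrays left out in turn was therefore 0 to 2. The count of genes at an unadjusted p below 0.05 was 1 in the analysis above, against 20.6% of all genes. It was 0 with the filter on all 6 arrays, which drops Apoa4, and 0 without scaling. With single arrays left out it was 0 to 3. The 3 stood without WT replicate 3, where 6742 of all 12297 genes were lower and 1642 higher at that threshold. The family's median of 0.04 became 0.45 without WT replicates 1 and 2, 0.20 after quantile normalization, 0.18 with median scaling and -0.058 in the deposited matrix, which lacks Apoa1 and Apoe, and ran from -0.21 to 0.28 with single arrays left out. Apoc1 changed sign after normexp (0.017), quantile normalization (0.20) and median scaling (0.14), and without WT replicates 1 and 2 (0.45). Apom did so after quantile normalization (0.27) and without WT replicates 1 and 2 (0.62), Apoa5 in the same settings (0.12 and 0.0029), and Apoc3 in the deposited matrix (-0.014). With single arrays left out, Apoa2 ran from -0.20 to 0.34, Apoe from -0.21 to 0.32, Apoc3 from -0.18 to 0.28, Apoc1 from -0.23 to 0.19 and Apom from -0.66 to 0.079. Apoa4, Apoa1 and Apob had 1 sign in all settings that gave them a value, but not 1 size. Without WT replicates 1 and 2, Apoa4 was 0.05 and Apoa1 0.04, and after quantile normalization Apob was -0.15. With single arrays left out, Apoa4 ran from 2.45 to 5.005, Apoa1 from 0.355 to 0.88 and Apob from -0.85 to -0.42. Normexp gave 2.12 for Apoa4. The deposited matrix has no value for Apoa1 and Apoe on WT replicate 2, so it gave no difference for them. Of all 23132 probes, 4861 had an unadjusted p below 0.05 with all arrays. That number was 14566 without WT replicate 3 and 1540 to 3161 without any other single array. Beside it, list counts ran, with single arrays left out, from 3 to 10 for other apolipoproteins (5 with all arrays). The counts ran from 1 to 21 for assembly and secretion (9), 2 to 14 for remodelling and uptake (3), and 1 to 24 for regulators (11). Without WT replicates 1 and 2 they were 3, 2, 4 and 3 in that order, in a fit whose lone WT array is assumed to vary like the KO arrays, so nothing is read from them. Normexp gave 8 genes for remodelling and uptake, in a fit where 5182 of all 23132 probes had an unadjusted p below 0.05. Replicate numbers are shared between genotypes, but same-numbered livers deviated from their group means with correlations of -0.13, 0.01 and -0.04, so the numbers were not taken as pairs. With the replicate number as a block, which cannot move a difference in this balanced design, 0 probes passed, the limma adjusted p of Apoa4 (3.35) was 0.211, and 4 genes of assembly and secretion had an unadjusted p below 0.05. In the fit with that block, 4615 of all 23132 probes had such a p. The cause of the shifts between settings was not tested. The 3 arrays per group and the background level of Apoa4 on WT replicate 1 limit all of these values.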
